A study of Mus musculus with 4 samples.

Results

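The HSP70 chaperone family was followed here in mouse kidney ureteric buds exposed to angiotensin II (AngII) or to media alone. Its members are Hspa1a, Hspa1b, Hspa8, Hspa2, Hspa14, Hspa4, Hspa4l, Hspa9, Hspa12a and Hspa13, taken as the array probes whose accession maps to those symbols. That gave 10 genes and 22 probes out of 41174 probes on the array, and 10 of 14985 features tested. The members were chosen with their AngII over media ratios known, so these ratios are given below as a description, with no p-value.

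HSP70 proteins are ATP-driven chaperones that bind unfolded stretches of client proteins and release them on nucleotide exchange. J-domain proteins deliver clients and trigger ATP hydrolysis, and exchange factors such as the HSP110-type proteins and BAG proteins reset the cycle. The transcription factor HSF1 drives the stress-inducible genes, while constitutive members serve folding in the cytosol, the mitochondria or the endoplasmic reticulum (ER) of unstressed cells.

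Ureteric buds are the epithelial outgrowths that form the collecting ducts. In both groups intact mouse kidney buds lay in matrix gel in DMEM/F12 holding 10% serum and the growth factors GDNF and HGF at 100 ng/ml each. They were exposed for 6 h to AngII at 1e-05 M or to media. Age and strain were not given in the sources used here. The labels give 2 numbered pairs of AngII and media RNA, each hybridised on 2 two-colour arrays of opposite dye orientation, and all 4 arrays lay on 1 slide. The log2 ratios of the numbered pairs correlated across features at r = 0.981, features not being independent replicates, and their difference was 1.02 times the array noise. In limma 0 of 14985 features differed between the pairs at an adjusted p under 0.05 and 768 at an unadjusted p under 0.05. The pairs were therefore counted as 1 pair of RNA samples. Every SD below is over the 4 arrays and, like the test over all features, measures the spread between hybridisations and not between animals or cultures.

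The 2 stress-inducible genes, Hspa1a and Hspa1b, stood apart from the other 8 members. Their levels were 4.91-fold and 5.44-fold lower under AngII, against log2 ratios between -0.69 and 0.36 for the rest. RefSeq promoter windows (GRCm38.p6, from 250 bases before to 50 bases after the start) were matched for 7 of 10 members. They are shown for the inducible genes because these lay low together, and for Hspa2, a constitutive cytosolic member, for contrast. Capitals mark GAANNTTC, which is the core of a heat shock element, CCAAT and the GC box GGGCGG, each also where it is read on the opposite strand. Both strands were searched and no printed motif overlaps another.
Hspa1a, chr17:34972107-34972406, minus strand: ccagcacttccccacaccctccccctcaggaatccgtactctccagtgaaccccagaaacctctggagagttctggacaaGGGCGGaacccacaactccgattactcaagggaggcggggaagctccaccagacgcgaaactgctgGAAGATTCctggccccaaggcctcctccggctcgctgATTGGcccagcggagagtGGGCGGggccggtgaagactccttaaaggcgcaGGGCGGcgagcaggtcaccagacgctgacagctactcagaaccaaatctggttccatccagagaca
Hspa1b, chr17:34959189-34959488, minus strand: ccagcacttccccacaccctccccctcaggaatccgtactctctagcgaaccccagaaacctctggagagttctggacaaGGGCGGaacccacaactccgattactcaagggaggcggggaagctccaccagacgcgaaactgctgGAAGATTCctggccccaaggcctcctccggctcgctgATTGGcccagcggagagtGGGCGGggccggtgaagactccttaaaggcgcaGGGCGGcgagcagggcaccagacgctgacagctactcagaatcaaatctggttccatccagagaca
Hspa2, chr12:76404120-76404419, plus strand: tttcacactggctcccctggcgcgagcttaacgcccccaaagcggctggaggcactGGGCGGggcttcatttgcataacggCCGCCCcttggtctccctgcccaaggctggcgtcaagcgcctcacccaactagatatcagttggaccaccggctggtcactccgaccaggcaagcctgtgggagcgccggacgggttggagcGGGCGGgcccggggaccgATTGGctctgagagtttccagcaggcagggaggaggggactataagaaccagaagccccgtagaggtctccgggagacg

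The Hspa1a and Hspa1b windows were identical at 296 of 300 bases (98.7%). Counted from 1 at the 5′ end of the window, with the Hspa1a base first, they differed by C44T, T47C, T249G and C276T, none of which lies in a marked motif. Both windows hold GAANNTTC once, 104 bases before the start, and 2 of the 7 members with a window hold this motif. It was present in 7.86% of all 32851 windows, CCAAT in 37.4% and GGGCGG in 35.7%. Because the genes are near copies, their probes may read both transcripts, and the split between them is uncertain.

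Hspa1b, an inducible cytosolic HSP70, was read by 2 probes. At its brighter probe the normalised log2 intensity in media was 13.74 and 13.65 on the arrays of pair 1 (AngII in Cy5, then in Cy3) and 13.86 and 13.40 on those of pair 2. Under AngII it was 11.41 and 11.16, then 11.50 and 10.80. Every AngII level lay below every media level. The log2 ratio was -2.44 ± 0.13 (SD, 4 arrays), with -2.33 and -2.35 where AngII was in Cy5 and -2.49 and -2.60 where it was in Cy3. Its dimmer probe had -2.14 ± 0.11. Of 14985 features, 1 lay lower than Hspa1b, and it has no gene name here.

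Hspa1a, its near-identical neighbour, was likewise low at both of its probes. In media the brighter probe had log2 intensities of 14.11 and 14.92 in pair 1 and 14.79 and 15.05 in pair 2. Under AngII it had 12.10 and 12.45, then 12.72 and 12.41. The groups again did not overlap. The ratio was -2.30 ± 0.31 at this probe and -2.32 ± 0.12 at the other. All 4 probes of the inducible pair thus had AngII levels wholly below media levels, a pattern that 15.1% of tested features shared. Whole buds were measured, so fewer cells of a type and less RNA per cell cannot be told apart.

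**Figure D1:**
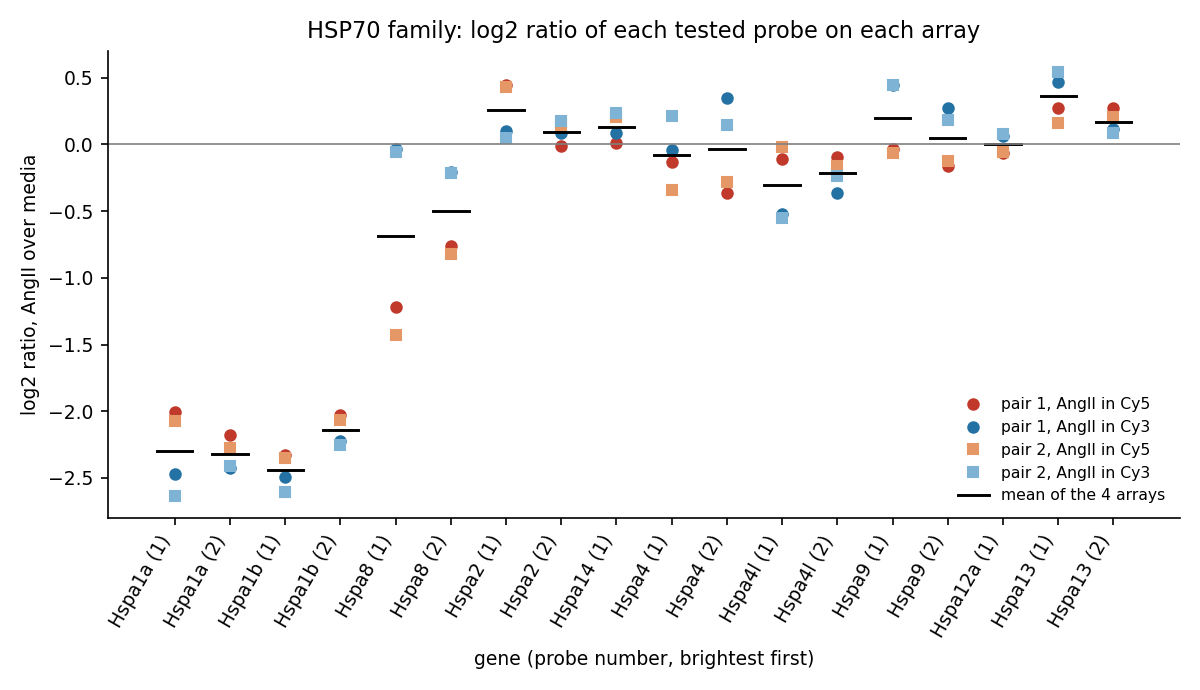
Log2 ratio of AngII over media (y axis) for each of the 18 tested HSP70 family probes (x axis, brightest probe of a gene first), with 1 point per array coloured by dye orientation and shaped by pair, and a bar at the mean. The 4 Hspa1a and Hspa1b probes lie between -2.00 and -2.64 on every array, while the arrays of Hspa8 split by dye orientation.

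Hspa8 encodes HSC70, the abundant constitutive HSP70 of the cytosol. Its brighter probe had log2 intensities in media of 14.18 and 13.47 in pair 1 and 14.45 and 13.65 in pair 2. Under AngII it had 12.96 and 13.43, then 13.02 and 13.59. AngII lay far below media on the arrays with AngII in Cy5 and just below it on the others, and the groups overlapped. The log2 ratios were -1.22 and -1.43 with AngII in Cy5 and -0.04 and -0.06 with AngII in Cy3, a mean of -0.69 ± 0.74. The other Hspa8 probe had -0.76 and -0.82 against -0.21 and -0.21, a mean of -0.50 ± 0.34. Hspa8 was lower on all 4 arrays at both probes, but the size of its difference depended on the dye orientation.

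Hspa2 and Hspa14, the cytosolic members grouped with Hspa8 as constitutive, had small positive ratios, whereas the means of Hspa4 and Hspa4l (below) were negative. Hspa2, best known for its role in male germ cells, had 0.45 and 0.43 with AngII in Cy5 and 0.10 and 0.05 with AngII in Cy3, a mean of 0.26 ± 0.21. Its AngII levels (8.35, 8.22, 8.34 and 8.23) all lay above its media levels (7.91, 8.12, 7.91 and 8.18), as in 17.9% of tested features. The dimmer Hspa2 probe had 0.10 ± 0.08, with overlapping levels and -0.01 on 1 array. Hspa14, which works with a J-domain partner at the ribosome, had 0.01 and 0.09 in pair 1 and 0.20 and 0.23 in pair 2, a mean of 0.13 ± 0.10. Its ratio was 0.05 in pair 1 and 0.22 in pair 2.

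Hspa4 and Hspa4l encode HSP110-type proteins, which act as nucleotide exchange factors for HSP70. Hspa4l had -0.11 and -0.02 with AngII in Cy5 and -0.52 and -0.55 with AngII in Cy3, a mean of -0.30 ± 0.27, and -0.21 ± 0.12 at its other tested probe. It was lower on every array at both probes, with overlapping levels. Hspa4 went both ways, at -0.13 and -0.04 in pair 1 and -0.34 and 0.21 in pair 2, a mean of -0.08 ± 0.23. Its second tested probe had -0.04 ± 0.34. The SD of Hspa4 exceeded its mean at both probes.

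Hspa9 encodes mortalin, the HSP70 of the mitochondrial matrix, which drives protein import and folding there. Its brighter probe had log2 intensities in media of 14.01 and 13.99 in pair 1 and 13.65 and 14.04 in pair 2. Under AngII it had 13.98 and 14.43, then 13.58 and 14.49. The ratios were -0.03 and -0.06 with AngII in Cy5 and 0.45 and 0.45 with AngII in Cy3, a mean of 0.20 ± 0.29. The other probe split in the same way, with -0.16 and -0.12 against 0.27 and 0.18, a mean of 0.04 ± 0.22. The sign of the Hspa9 ratio thus turned with the dye orientation at both probes.

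Hspa13, a microsomal member that lacks the usual substrate-binding part, had the highest ratio of the family. It had 0.27 and 0.47 in pair 1 and 0.16 and 0.54 in pair 2, a mean of 0.36 ± 0.18, and 0.17 ± 0.09 at its other probe. It was higher on every array at both probes. Hspa12a, a divergent relative, was dim, with a mean log2 intensity of 6.31, and 1 of its 3 probes was tested. Its ratios ran from -0.07 to 0.08, with a mean of 0.00 ± 0.08.

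**Figure D2:**
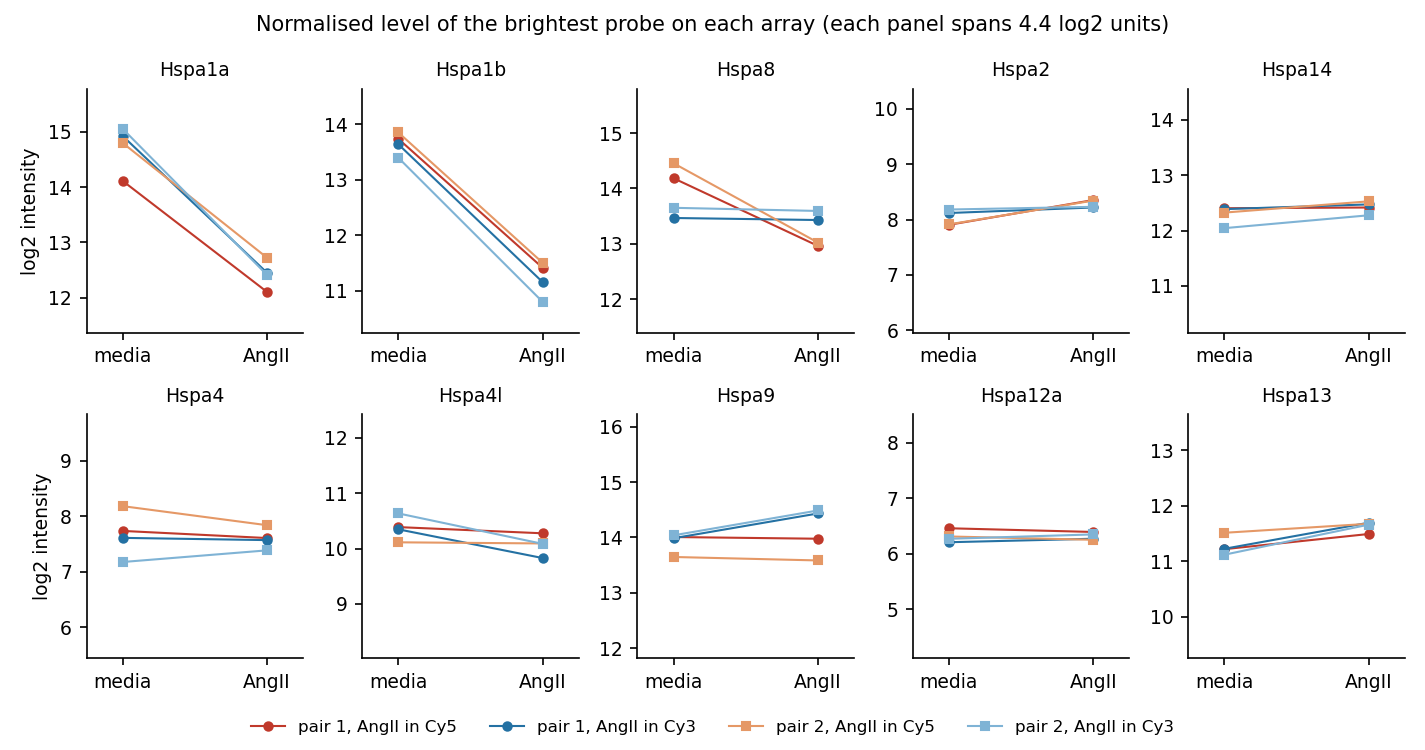
Normalised log2 intensity (y axis) in media and under AngII for the brightest probe of each member, with 1 line per array. Each panel spans an equal range centred on its own mean, so slopes can be compared between panels and levels cannot. Hspa1a and Hspa1b are far lower under AngII on all 4 arrays, Hspa8 is clearly lower on the 2 arrays with AngII in Cy5, and Hspa9 is higher on the 2 arrays with AngII in Cy3.

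Set against Hspa8 array by array, the mean of Hspa1a and Hspa1b differed in log2 ratio by -0.95 and -0.78 with AngII in Cy5 and by -2.44 and -2.56 with AngII in Cy3. The mean difference in log2 ratio was -1.68 ± 0.95, or 3.21-fold, its mean being -0.86 over the AngII-in-Cy5 arrays and -2.50 over the AngII-in-Cy3 arrays. Against mitochondrial Hspa9 the difference was -2.57 ± 0.50, or 5.94-fold, and lay between -2.14 and -3.07 on the arrays. Against Hspa2 it was -2.63 ± 0.04 and against Hspa4l -2.07 ± 0.09. The inducible genes lay below each of the other 8 members on every array, and the gap to Hspa8 was the most variable of these. Hspa1b minus Hspa1a was -0.15 ± 0.18, less than its spread over the arrays.

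The dye orientation can be tested without the AngII contrast, since it is a separate term in a fit on the 4 arrays. The dye term, the distance of each orientation's mean from the overall mean, was -0.64 for Hspa8 (limma SE 0.03, adjusted p = 6.40e-06). It was larger in size than that of 99.8% of all features. It was -0.25 for Hspa9 (adjusted p = 0.000191) and 0.26 for Hspa1a (adjusted p = 0.000184). For Hspa1b it was 0.10 (adjusted p = 0.0203), small beside the ratio of this gene. In all 8 of 10 members passed for the dye term, against 56.9% of features, and Hspa14 (adjusted p = 0.504) and Hspa12a (adjusted p = 0.0882) did not. No member differed between the numbered pairs at an adjusted p under 0.05, and Hspa14 alone did before adjustment.

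**Figure D3:**
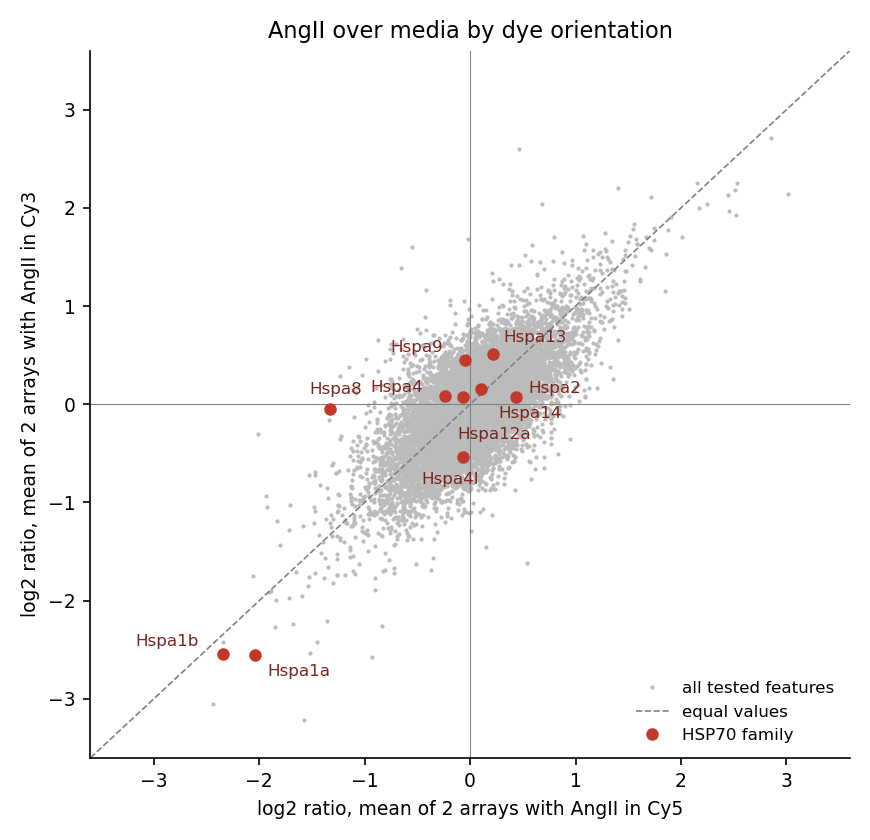
Mean log2 ratio of AngII over media on the 2 arrays with AngII in Cy3 (y axis) against that on the 2 arrays with AngII in Cy5 (x axis), with 1 grey point per tested feature and the family in red. Hspa1a and Hspa1b lie low on both axes near the dashed line of equal values, and Hspa8 lies at -1.33 on the x axis and -0.05 on the y axis.

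Of the 10 members, all of which passed the filter on dim probes, 9 passed limma's threshold of an adjusted p under 0.05, against 77.3% of all features, 5 lower (38.1% of features) and 4 higher (39.1%). At least 2-fold lower were 2 members (0.961% of features), and at least 1.5-fold lower were 3 (5.41%), none being 1.5-fold higher (5.50%) or 2-fold higher (1.16%). A ratio below 0 on all 4 arrays was found for 4 members (28.1%) and above 0 for 3 (31.0%), which makes 7 of 10 with 1 sign (59.1%). AngII and media levels did not overlap for 3 members (33.0%), Hspa2 being the only one above (17.9%). Without pair 1, 3 members passed limma's threshold, and without pair 2, 2 did. The members were chosen on this contrast, so nothing is read from these shares. The median log2 ratio was -0.04 over the 10 members and 0.07 without the inducible pair, beside 0.00 for all features. In the authors' deposited table Hspa1b had a log2 ratio of -2.47 and Hspa1a -2.28 at the same probes, with Hspa8 at -0.67 and Hspa9 at 0.24, and 8 of 10 members passed there (70.1% of features).

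Among genes known as HSF1 targets outside the family, 14 of 23 tested fell and 7 rose, while 2 missed the threshold, beside 38.1% of all features that fell and 39.1% that rose. Their median log2 ratio was -0.11, beside 0.00 for all features. Without pair 1, 5 of the 23 passed, without pair 2, 4 did, and 13 passed in the authors' deposited table. The ratio was below 0 on all 4 arrays for 8 of the 23 (28.1% of all features), above 0 for 5 (31.0%) and of mixed sign for 10. At least 1.5-fold lower were 3 (5.41%) and at least 1.5-fold higher 1 (5.50%). Hspb8, a small heat shock protein, fell by 1.30 ± 0.13, the HSP90 immunophilin partner Fkbp4 by 0.78 ± 0.05, and the cytosolic HSP90 gene Hsp90ab1 by 0.72 ± 0.22. Stip1 encodes HOP, which hands clients from HSP70 to HSP90, and fell by 0.46 ± 0.07. Cryab, a small heat shock protein, rose by 1.02 ± 0.51, with 0.19 at its other probe. Of 19 targets with a RefSeq promoter window 9 hold GAANNTTC, beside 9.04% of all genes with a window. TTCNNGAA, which was also searched, is held by 5 of the 19, and by 8.52% of all windows. Dnajb4 holds TTCNNGAA without GAANNTTC, so it is not among the 9. The list was made of known HSF1 targets, so these shares are not results of these data. Of the 9 with GAANNTTC, 6 fell, 2 rose and 1 missed the threshold, Hspb8 being the lowest and Chordc1, at 0.36, the highest. Their median log2 ratio was -0.08. Dnaja1 and Hsph1, which fell, and Bag3, which rose, changed sign between the dye orientations. Dnaja1 and Hspd1, which fell, had 0.30 and 0.27 at another probe, while Fkbp4 and Chordc1 kept their sign at theirs. The HSF1 gene itself, Hsf1, had -0.13 ± 0.21 and passed, with ratios that changed sign between the dye orientations.

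Of 37 tested J-domain co-chaperones, 20 rose, 10 fell and 7 missed the threshold, beside 39.1% of all features that rose and 38.1% that fell. The ratio was above 0 on all 4 arrays for 16, below 0 for 4 and of mixed sign for 17. Their median was 0.11, and 9 passed without pair 1 and 5 without pair 2. Hscb, which delivers iron-sulphur scaffold proteins to Hspa9, rose by 0.81 ± 0.10. Dnajc10, a disulphide reductase of the ER, rose by 0.73 ± 0.37, Dnajc12 by 0.65 ± 0.29, Dnajc15 by 0.62 ± 0.36 and Dnajc4 by 0.50 ± 0.32. Of the 12 nucleotide exchange factors, 4 rose, 4 fell and 4 missed the threshold (median 0.01). Sil1, the exchange factor of the ER HSP70, rose by 0.77 ± 0.35, and Grpel1, that of Hspa9, by 0.29 ± 0.16. Bag1 rose by 0.23 ± 0.15, while Hspbp1 and Bag5 fell by 0.17 ± 0.07 and 0.16 ± 0.08.

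Partners that receive or modify HSP70 clients fell in 6 of 15 and rose in 3, with a median of -0.03. This stands beside 38.1% of all features that fell and 39.1% that rose. The ratio was below 0 on all 4 arrays for 4 of these partners, above 0 for 1 and of mixed sign for 10. Beside Fkbp4 and Stip1, the ubiquitin ligase gene Stub1 fell by 0.16 ± 0.07. Hikeshi, which carries HSP70 into the nucleus, rose by 0.46 ± 0.06, and Sugt1 by 0.15 ± 0.17, with 1 array below 0. Of 15 mitochondrial chaperones and partners of Hspa9, 8 rose (39.1% of all features), 4 fell (38.1%) and 3 missed the threshold, the median being 0.20. The ratio was above 0 on all 4 arrays for 8, below 0 for 2 and of mixed sign for 5. Hscb, Dnajc15, Dnajc19, Dnaja3 and Grpel1 rose and also belong to the J-domain or exchange factor lists, so the lists are not independent. Besides Hscb, Dnajc15 and Grpel1, the import motor gene Dnajc19 rose by 0.47 ± 0.06 and Dnlz by 0.29 ± 0.27, with -0.07 at another Dnlz probe. Of 2 tested genes of the HSF1 axis, Hsbp1 had 0.05 ± 0.40 and did not pass, and Hsf2, Hsf4 and Hsf5 were not tested. In the wider superfamily Hsph1 fell by 0.08 ± 0.35, with a sign that turned with the dye orientation, and Hspa12b had 0.00 ± 0.34 and Hyou1 -0.02 ± 0.14, neither of which passed.

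**Figure D4:**
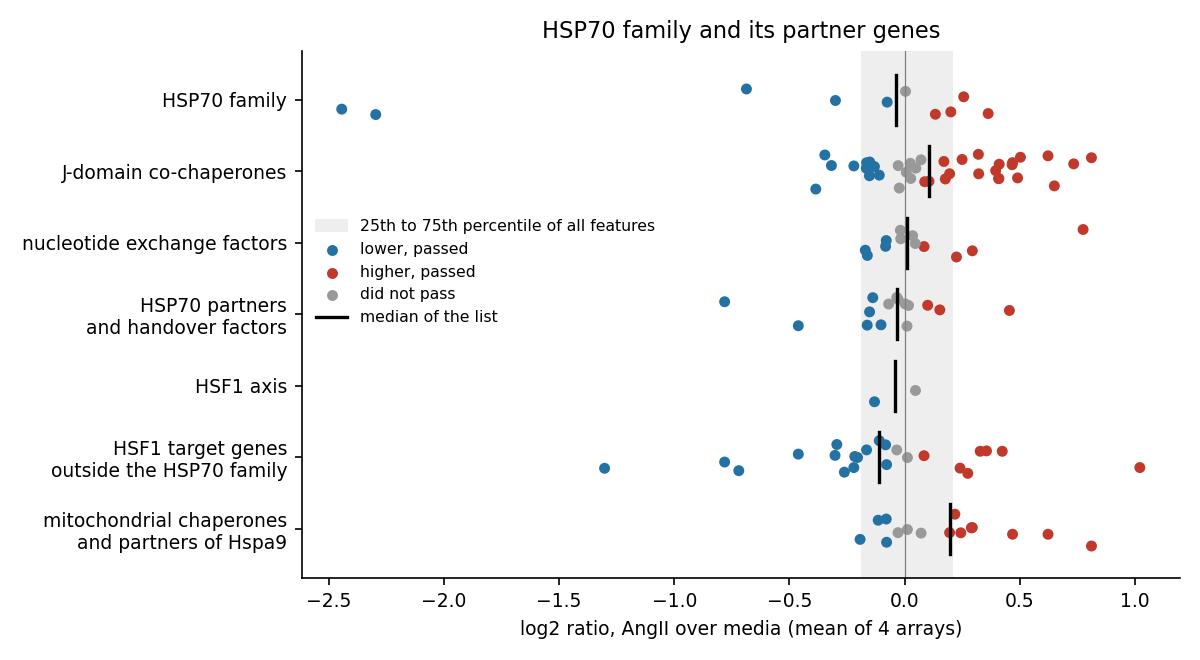
Log2 ratio of AngII over media (x axis, mean of the 4 arrays) for the tested genes of the family and of 6 lists of partner genes, with 1 point per gene coloured by call, a bar at each list's median, and a grey band from the 25th to the 75th percentile of all features. Hspa1a and Hspa1b lie left of every partner gene, of which Hspb8 at -1.30 is the lowest.

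The 5 named genes outside the family whose ratios lay nearest to those of Hspa1b over the 4 arrays were found by the root mean square difference. They were the chemokine genes Ccl4 (0.518) and Ccl20 (0.530), then Fjx1 (0.548), the stathmin gene Stmn4 (0.560) and the tubulin gene Tuba8 (0.597). Hspa1a was nearer, at 0.215. The likeness rests on 4 arrays of 1 comparison and mainly reflects how low these ratios are.

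Of 19 ureteric bud epithelium markers 17 were tested, 7 of which rose and 8 fell (median log2 ratio -0.03, mean log2 intensity 11.14 to 11.29 under AngII and 11.19 to 11.24 in media). Ret and Cdh1 were not tested. Markers of other cell types were also detected, several of them dim. Mean log2 intensity was 6.44 for C1qa, 6.50 for Ptprc and 6.31 for Tie1, beside 6.31 for the dim member Hspa12a. Of 8 tested erythroid markers 7 rose, with a median log2 ratio of 2.06 and a mean log2 intensity of 10.24 to 10.53 under AngII against 8.64 to 8.75 in media. Medians were -0.13 for 9 leukocyte markers (6.89 to 6.97 against 6.81 to 6.87), -0.13 for 11 endothelial (7.79 to 7.85 against 7.85 to 7.93), 0.09 for 12 stromal (10.64 to 10.72 against 10.33 to 10.44) and -0.25 for 10 nephron progenitor markers (8.57 to 8.74 against 8.58 to 8.84). Single markers differed by more than these medians. Log2 ratios ran from -1.13 to 1.53 for bud epithelium, -0.19 to 0.64 for leukocyte and -0.49 to 0.49 for endothelial markers. They ran from -0.16 to 1.69 for stromal and from -0.60 to 0.77 for nephron progenitor markers. The part of all these markers in the HSP70 results was not tested.

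**Figure D5:**
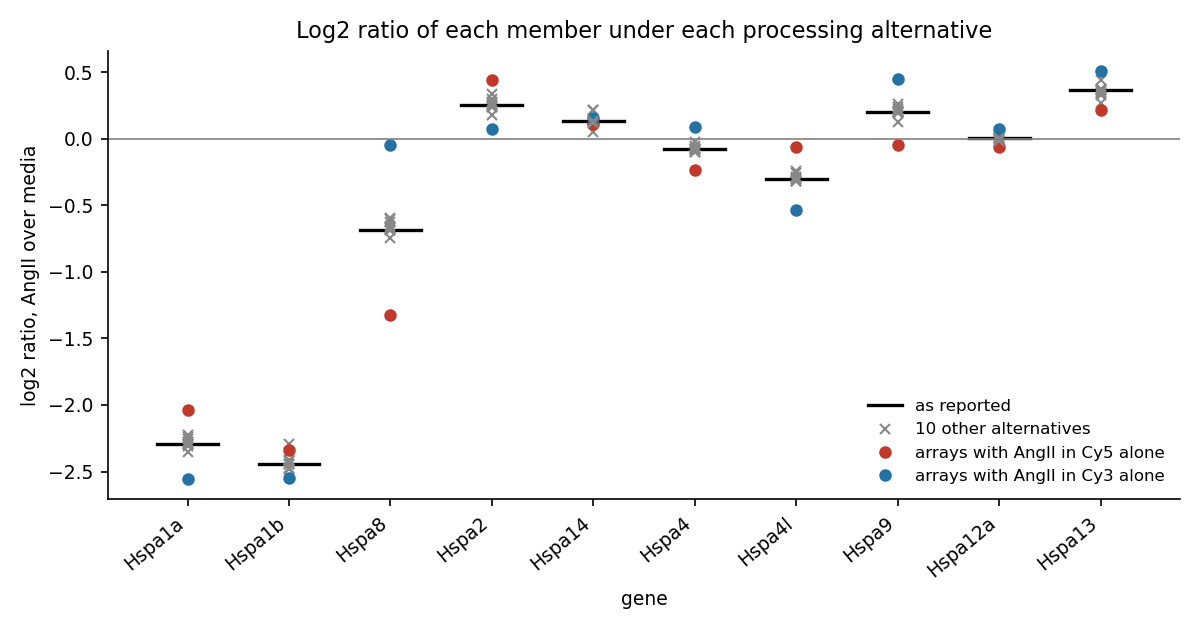
Log2 ratio of AngII over media (y axis) of each member (x axis) as reported (bar), with the arrays of each dye orientation alone (coloured points) and under the 10 other alternatives (crosses). Hspa1a stays between -2.55 and -2.04 and Hspa1b between -2.55 and -2.29, while Hspa8 spans -1.33 to -0.05.

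The 12 alternatives changed the processing or kept only the arrays of 1 pair or 1 dye orientation. Across them the log2 ratio of Hspa1a ran from -2.55 to -2.04 and that of Hspa1b from -2.55 to -2.29. Hspa8 ran from -1.33 to -0.05 and Hspa4l from -0.53 to -0.07, both staying below 0. Hspa13 ran from 0.22 to 0.51, Hspa2 from 0.07 to 0.44 and Hspa14 from 0.05 to 0.22, all staying above 0. Hspa4 (-0.24 to 0.08), Hspa9 (-0.05 to 0.45) and Hspa12a (-0.06 to 0.07) took both signs. For all members but Hspa1b and Hspa14 both ends of the range came from the arrays of 1 dye orientation alone. Both ends for Hspa14 came from leaving out a pair. The members were chosen on this contrast, so these ranges are a description.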

How the data were processed

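RNA (300 ng per labelling) was read on 4 two-colour Agilent arrays. The deposited intensity values are median pixel signals of spot and local background and Agilent's processed intensity, written by Feature Extraction 10.5.1.1. The submitters' processing notes also name limma. The deposited scanner flags are 0 or 1. The authors' deposited table gives log2 ratios, adjusted p-values and a call, treated as a score, that is -1, 0 or 1. Its design is not given in the sources used here.

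In R 4.3.3 with limma 3.58.1, background was corrected by normexp (offset 50) and loess was applied within arrays (control spots had weight 0). Spots flagged as outliers were dropped, spots of a probe averaged, and arrays with AngII in Cy3 turned. Levels by channel were further scaled between arrays (Aquantile). Probes well above background in 1 group on all 4 arrays and unflagged on all 4 were kept (features with a flagged array were not tested), and the brightest probe stood for a gene. The arrays of a pair were averaged and the 2 ratios tested against 0 with lmFit and eBayes, with Benjamini-Hochberg adjustment over 14985 features. Names came from RefSeq transcript and Ensembl accessions listed for RefSeq genes (25097 probes named). Array annotation is mm9, so only promoter windows have coordinates.

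The members, lists and tests were chosen with earlier results of these data known. Named genes were all members, the up to 5 tested genes with the largest absolute ratio in each partner list, and the 5 named genes nearest Hspa1b. Further genes are named where a result turns on them. Genes not tested are named only. Each array holds the RNAs of 1 number, so the pairing lies within the ratio. On data simulated for this comparison over 14985 features, 50 of 50 features changed by 0.25 were called and 10 of 14785 unchanged ones. The simulation held a dye difference and array noise of equal size for every feature. It held no spread between animals or cultures, so it checks the fit against hybridisation noise alone.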

Additional observations from a re-analysis of the deposited data

Results flagged for a closer look

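In 2 of 10 members both arrays of 1 dye orientation lay on 1 side of 0 and both of the other on the opposite side, as in 21.7% of all features. Hspa9 had a mean log2 ratio of -0.047 with AngII in Cy5 and 0.45 with AngII in Cy3, and the difference passed as a dye term (limma adjusted p = 0.000191). Hspa12a had -0.063 and 0.071, where the dye term did not pass (limma adjusted p = 0.0882).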

How the results depend on the processing

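All but 1 of 120 values (12 alternatives for each of 10 members) moved by less than the SD over the arrays. The exception was Hspa1b, at -2.29 when its probes were averaged. A mean over 1 pair or 1 dye orientation cannot move by more than that SD. The replicate block and both changes of the filter on dim probes leave these ratios as they were. The count therefore says little about stability. Hspa12a, near 0, took both signs. The Hspa4 ratio turned to 0.085 with AngII in Cy3 alone and that of Hspa9 to -0.047 with AngII in Cy5 alone. With the replicate block 8 members and 11408 features passed, against 9 and 11582, and Hspa4 was the member lost. It changed no other member's call. Leaving out 1 pair puts the dye difference into the error, and 2 to 3 members, 4 to 5 HSF1 targets, 5 to 9 J-domain genes and 2212 to 2946 features then passed. Features at least 2-fold lower numbered 144, but 486 with processed signals and 252 with AngII in Cy3 alone. Of the HSF1 targets, 13 passed in the authors' deposited table, against 21. A count by 1 sign on all 4 arrays, chosen after seeing the data, gave 7 members. The number of arrays and the single pair of RNA samples limit the precision, and Hspa12a was dim on all 4 arrays.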

Other observations

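Partners of the ER HSP70 were looked at together after their values were seen, so the grouping is a description. The J-domain genes Dnajc3 and Dnajb9 had log2 ratios of 0.49 ± 0.06 and 0.41 ± 0.22 (SD, 4 arrays), Dnajc1 0.32 ± 0.29 and Sec63 0.32 ± 0.36, with -0.05 at another Dnajc1 probe, beside Dnajc10 and Sil1 in the report. Other probes of these genes had lower values in part, with 0.18 and 0.06 for Dnajb9 and 0.05 for Sec63. Hyou1, an ER exchange factor, had -0.02 ± 0.14 and did not pass. Hspa5, which encodes the ER HSP70, was not tested because its spot was flagged on 1 array, and it had 0.41, 0.39 and 0.78 on the other 3.

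Genes beside the inducible pair in the RefSeq gene order had ratios of both signs. Neu1, next to Hspa1b, had 0.49 ± 0.06, with -0.31 at another probe, and Slc44a4 0.63 ± 0.18. On the Hspa1a side Hspa1l was not tested, Lsm2 had -0.86 ± 0.59 and Vars -0.24 ± 0.05. Further out, Ehmt2 had 0.08 ± 0.28 and Zbtb12 -0.28 ± 0.19.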
